A study of Homo sapiens with 18 samples.

Results

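The genes described here are the SR proteins, the hnRNP proteins and the kinases that act on SR proteins, 44 genes measured by 73 probes of the array. They were chosen by name, as every gene whose symbol reads SRSF with a number or begins with HNRNP, together with TRA2A, TRA2B, PTBP1, PTBP2, CLK1 to CLK4, SRPK1 and SRPK2, with pseudogenes left out (1 probe). They make up 44 of the 19716 genes that could be named and 73 of the 42327 probes measured. By role they are 12 SRSF genes with 21 probes, 2 TRA2 genes with 3 probes, 22 HNRNP genes with 40 probes, 2 PTBP genes, 4 CLK genes with 5 probes and 2 SRPK genes. No probe was lost to low signal, since all 73 were well above background on all 18 arrays. More than 1 probe was present for 20 genes, and the other 24 genes rest on a single probe.

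EpCAM+ cells of the hepatocellular carcinoma (HCC) lines Huh1 and Huh7 were cultured with disulfiram (DSF, 0.1 µM), with 5-fluorouracil (5-FU, 1 µM) or with neither, and their RNA was hybridized to one-color arrays. The sample records name the drug exposure first and the sort for EpCAM second, and do not otherwise say whether the sort followed the exposure. DSF is an inhibitor of aldehyde dehydrogenase used against alcohol dependence, and 5-FU is a fluorinated pyrimidine used in chemotherapy. Drug exposure lasted 48 hours, and the 6 groups (Huh1 control, Huh1 DSF, Huh1 5-FU, Huh7 control, Huh7 DSF and Huh7 5-FU) held 3 arrays each, from 3 separate experiments by the study's methods. Copper chloride accompanied DSF in those methods, and the treatment of control cells, vehicle included, is not given there. Every group was selected for EpCAM on the cell surface, each line is a single established culture, and sorted RNA cannot tell fewer cells of a kind from less RNA per cell.

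EPCAM and 9 other markers of epithelial and hepatocellular carcinoma cells, among them AFP, ALB and KRT18, were well above background on all 18 arrays. EPCAM itself differed between the groups, with a mean log2 level of 2.62 in Huh1 control, 3.01 in Huh1 5-FU and 1.96 in Huh1 DSF, and of 5.49, 5.74 and 5.00 in the matching Huh7 groups, and its part in the results below was not tested. Among markers of blood, vessel and stromal cells, ACTA2 was well above background on 0 arrays, COL1A2 on 2, CD3E and PDGFRB on 3, COL1A1 on 7, VWF on 13, and PTPRC, CD14, PECAM1 and CDH5 on 18. The arrays lay on 3 slides. Slide 1 held all Huh1 arrays except DSF replicate 3, slide 2 held that array with all Huh7 arrays except DSF replicates 2 and 3, and slide 3 held those 2 arrays alone. The 2 arrays of slide 3 had 70.13% and 70.57% of probes well above background, against 59.35% to 68.24% on the others.

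SR proteins bind exonic enhancer sequences through RNA recognition motifs and recruit the spliceosome through a domain rich in arginine and serine, and hnRNP proteins bind the same transcripts and often oppose them. SRPK kinases phosphorylate the arginine and serine domain in the cytoplasm, which allows import into the nucleus, and the nuclear CLK kinases phosphorylate it further and release SR proteins from nuclear speckles. Several SR, TRA2 and hnRNP genes hold an alternative exon with an early stop codon that lowers their own protein, and CLK1 and CLK4 make unproductive transcripts as well, so that probes to different parts of these genes can read different transcripts.

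Levels are given as the log2 of the processed spot signal minus the 75th percentile of the same array, so a level of 0 is the array's 75th percentile. A change is a difference of these log2 levels, with its standard error (SE) from limma fitted to all 18 arrays. A probe was called changed at a Benjamini-Hochberg adjusted p below 0.05 over 29760 probes. For genes with several probes, the probe with the highest mean level represents the gene. The p-values measure the spread between these arrays, and with 3 arrays against 3 an exact test of a single value cannot go below p = 0.1.

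After DSF in Huh1, 11 of the 73 probes were called higher and 29 lower. In Huh7 DSF gave 17 higher and 9 lower. Over all probes tested, the Huh1 comparison called 24.0% higher and 20.4% lower, and the Huh7 comparison 27.4% higher with 19.4% lower. Of the 73 probes, 15.1% were higher with 39.7% lower in Huh1, while 23.3% were higher with 12.3% lower in Huh7, so that the lower calls were above the background share in Huh1 and below it in Huh7. The Huh1 side did not hold on the scale of spike-in probes described below, where 4.11% of the members were lower against 8.06% of all probes. The Huh7 share stayed below that of all probes under each scaling, though by little with quantile normalization (20.5% against 21.7%). The median change of the 73 probes was -0.13 in Huh1 and 0.04 in Huh7, beside medians over the whole array of 0.00 and 0.08. Leaving out Huh1 control replicate 2 or Huh1 DSF replicate 2 lowered the higher calls in Huh1 to 7. The lower calls in Huh7 dropped to 5 without Huh7 control replicate 2 or 3 or without Huh7 DSF replicate 2 or 3, and to 2, CLK2 and SRSF12, without both arrays of slide 3 or with slide as a block.

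After 5-FU in Huh1, 7 probes were called higher and 51 lower. In Huh7 5-FU gave 8 higher and 42 lower. The background shares were 22.3% higher with 26.0% lower in Huh1 and 27.4% higher with 29.8% lower in Huh7, against 69.9% of the probes lower in Huh1 and 57.5% in Huh7. On the representative probe, 33 of 44 genes fell in Huh1 and 25 in Huh7, and 4 genes rose in each line. Median changes were -0.42 and -0.23, where all probes had medians of -0.03 and -0.05. Without Huh7 5-FU replicate 1, 5 probes were called higher in Huh7. With normexp background correction the lower shares of all probes grew to 43.5% in Huh1 and 44.6% in Huh7, against 71.2% and 57.5% of the members.

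These directions after 5-FU are relative to the rest of the array. The 75th percentile itself was higher after 5-FU by 0.83 in Huh1 and by 0.98 in Huh7 on the log2 scale, measured against 7 bright spike-in probes for control RNA added at labelling. On the scale of the spike-in probes the median of all probes rose to 0.80 and 0.94, and 42 of the 73 probes were called higher with 3 lower in Huh1, while 52 were higher with 7 lower in Huh7. The higher calls made up 57.5% and 71.2% of the members, against 75% and 76.7% of all probes, and the lower calls 4.11% and 9.59%, against 1.22% and 3.48%. The gap between the median of the 73 probes and the array-wide median, which a constant shift of an array leaves as it is, was -0.38 in Huh1 and -0.18 in Huh7, with 62 and 51 of the probes under the array-wide median. Normexp background correction narrowed it to -0.2 and -0.04, with 53 and 40 probes under the median. With DSF the 75th percentile moved by 0.13 in Huh1 and by -0.18 in Huh7 against the same spike-in probes. Less the spike-in probes, it was -2.941 on Huh1 DSF replicate 3 (slide 2) and -3.233 and -3.191 on replicates 1 and 2. Huh1 control lay at -3.269, -3.267 and -3.231. In Huh7 it was -3.476 and -3.479 on the DSF arrays of slide 3 and -3.133 on DSF replicate 1. Huh7 control lay at -3.194, -3.259 and -3.105. These DSF shifts therefore cannot be told apart from the slide. On the spike-in scale 8 probes were called higher with 3 lower in Huh1, while 2 were higher with 7 lower in Huh7. All probes gave 23.7% higher with 8.06% lower in Huh1 and 10.7% higher with 20.5% lower in Huh7, each above the member share (11% and 4.11%, 2.74% and 9.59%). HNRNPAB and PTBP1 were the only members called higher after DSF in Huh7 there, and HNRNPA2B1, HNRNPA3 and SRSF1 the only ones called lower in Huh1.

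After DSF the CLK kinases, which phosphorylate SR proteins in the nucleus, rose in Huh1. All 5 CLK probes were called higher there, against 24.0% of all probes, with a median change of 1.15. In Huh7 none was higher and 4 were lower, against 19.4% of all probes, with a median of -0.33. With median scaling only CLK1 and CLK3 of the CLK genes were still called higher in Huh1. With slide as a block only CLK2 of them was still called lower in Huh7. The test of the difference between the lines called all 5. The sequences upstream of the CLK genes are printed here because these 4 related genes were called in the same direction in Huh1 with very different sizes of change. Each is the 250 bases before a transcription start in RefSeq, build GRCh38.p14, read 5′ to 3′ on the gene's strand, and for CLK1 and CLK3, with 2 starts each in the table, the window richer in G and C was taken. They lie at chr2:200864659-200864908 (minus strand, CLK1), chr1:155273505-155273754 (minus strand, CLK2), chr15:74615586-74615835 (plus strand, CLK3) and chr5:178627051-178627300 (minus strand, CLK4). Capitals mark CGTCA on either strand, the half-site of the cyclic AMP response element.
CLK1: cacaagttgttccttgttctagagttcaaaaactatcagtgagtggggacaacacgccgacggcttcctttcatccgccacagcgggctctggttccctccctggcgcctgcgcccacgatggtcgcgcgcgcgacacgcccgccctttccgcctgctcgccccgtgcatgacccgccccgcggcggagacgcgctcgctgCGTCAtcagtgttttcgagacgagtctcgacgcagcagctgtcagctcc
CLK2: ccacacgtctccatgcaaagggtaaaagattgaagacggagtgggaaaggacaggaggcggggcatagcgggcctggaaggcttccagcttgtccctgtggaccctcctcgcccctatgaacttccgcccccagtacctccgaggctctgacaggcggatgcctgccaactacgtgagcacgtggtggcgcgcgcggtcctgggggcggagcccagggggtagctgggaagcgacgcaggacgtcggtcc
CLK3: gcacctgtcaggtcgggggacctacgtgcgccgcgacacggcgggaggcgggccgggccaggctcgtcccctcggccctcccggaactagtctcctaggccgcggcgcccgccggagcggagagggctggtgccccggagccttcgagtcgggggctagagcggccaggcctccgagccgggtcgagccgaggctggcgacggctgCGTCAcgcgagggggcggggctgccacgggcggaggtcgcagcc
CLK4: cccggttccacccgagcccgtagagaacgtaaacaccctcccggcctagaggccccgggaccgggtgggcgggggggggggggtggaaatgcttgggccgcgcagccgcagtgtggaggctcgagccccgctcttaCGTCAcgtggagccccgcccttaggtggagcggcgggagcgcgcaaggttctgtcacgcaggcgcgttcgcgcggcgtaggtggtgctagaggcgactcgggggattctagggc
CGTCA stood 1 time in the windows of CLK1, CLK3 and CLK4 and 0 times in that of CLK2. Among all 35116 windows of this length 21.2% held it, and among the 61 windows listed for 41 of the 44 genes 42.6% did. The core of the metal response element (TGCACNC or TGCGCNC, either strand) was in the windows of CLK1 and CLK4, in 36.1% of the 61 windows and in 24.8% of all. The core of the heat shock element (GAANNTTC) was in none of the 4 windows, in 6.56% of the 61 and in 5.78% of all. A match of letters is a description of the sequence and does not show binding.

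CLK1, a dual-specificity kinase of SR proteins, had levels of 0.28, 0.20 and 0.43 on the Huh1 control arrays and 1.97, 1.86 and 1.85 after DSF, with no overlap. Its rise was 1.59 (SE 0.14, adjusted p = 5.59e-07), a 3.00-fold change, and the other CLK1 probe rose by 1.54 (SE 0.12). In Huh7 the control arrays lay at 1.18, 1.19 and 1.18 and the DSF arrays at 0.89, 0.53 and 0.44. The DSF arrays were all lower, and the lowest 2 are the arrays of slide 3. The change in Huh7 was -0.56 (SE 0.14, adjusted p = 0.00375). With slide as a block it was -0.29 (adjusted p = 0.243) and was no longer called. The difference between the lines, -2.15 (SE 0.19, adjusted p = 1.71e-06), was -1.9 with slide as a block (adjusted p = 0.000105).

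CLK3, another kinase of this family, rose in Huh1 and was not called in Huh7 after DSF. Its levels were 2.40, 2.51 and 2.46 in Huh1 control and 3.58, 3.64 and 3.60 after DSF, a rise of 1.15 (SE 0.07, adjusted p = 1.75e-08). In Huh7 the control arrays (3.23, 3.15 and 3.20) and the DSF arrays (3.23, 3.13 and 3.31) overlapped, with a change of 0.03 (SE 0.07, adjusted p = 0.713). The difference between the lines was -1.12 (SE 0.10, adjusted p = 1.31e-06).

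CLK2 and CLK4 changed less after DSF. CLK2 was at -1.24, -1.27 and -1.16 in Huh1 control and at -1.0, -0.91 and -0.96 after DSF, and in Huh7 at 0.48, 0.53 and 0.48 against -0.07, 0.02 and 0.05. The arrays did not overlap in either line, and the changes had opposite signs, 0.27 (SE 0.08, adjusted p = 0.0140) in Huh1 and -0.49 (SE 0.08, adjusted p = 0.000182) in Huh7. The Huh1 call was lost with median scaling, where the change was 0.09 (adjusted p = 0.372), and without Huh1 control replicate 2 or Huh1 DSF replicate 2 (adjusted p up to 0.0536). CLK4 lay at -1.33, -1.59 and -1.53 in Huh1 control against -1.20, -1.25 and -1.32 after DSF, and at -1.98, -1.94 and -1.99 in Huh7 control against -2.00, -2.33 and -2.34. The groups did not overlap, and the changes were 0.23 in Huh1 (adjusted p = 0.0493) and -0.25 in Huh7 (adjusted p = 0.0314). Each of these CLK4 calls was lost in 5 of the 6 fits that left out 1 array, in Huh1 all but the fit without control replicate 1 and in Huh7 all but the fit without DSF replicate 1, and with slide as a block the Huh7 change was -0.03 (adjusted p = 0.874).

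After 5-FU the 4 CLK kinases differed in direction. CLK4 rose in both lines, to -0.76, -0.67 and -0.69 in Huh1 and to -1.23, -1.22 and -1.32 in Huh7. The treated arrays were all above control, with a rise of 0.77 in Huh1 (SE 0.09, adjusted p = 8.00e-06) and of 0.71 in Huh7 (SE 0.09, adjusted p = 8.77e-06). CLK2 fell by 0.57 in Huh1 (SE 0.08, adjusted p = 4.95e-05), to -1.97, -1.79 and -1.59, and fell by 0.94 in Huh7 (SE 0.08, adjusted p = 1.88e-07), to -0.50, -0.39 and -0.45. CLK1 rose by 0.62 in Huh1 (SE 0.14, adjusted p = 0.00168) and was not called in Huh7 (0.05, adjusted p = 0.755). CLK3 rose by 0.24 in Huh1 (adjusted p = 0.00975, or 0.0568 with median scaling) and was not called in Huh7 (0.04). On the spike-in scale the CLK2 change in Huh7 was 0.04 and was not called, while CLK1, CLK3 and CLK4 were called higher in both lines.

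SRPK1, the cytoplasmic kinase of SR proteins, fell by 0.48 after DSF in Huh1, by 0.34 after 5-FU in Huh1 and by 0.20 after 5-FU in Huh7, and was not called after DSF in Huh7 (-0.04). SRPK2 was called in none of these 4 comparisons, with changes from -0.21 to -0.02. On the spike-in scale SRPK1 and SRPK2 were both called higher after 5-FU in each line, and SRPK1 was not called after DSF in Huh1.

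Among the 12 SRSF genes, 8 fell and 1 rose after DSF in Huh1, and 3 rose and 2 fell in Huh7. After 5-FU 10 fell and 1 rose in Huh1, and 7 fell and 1 rose in Huh7. Of the 21 SRSF probes, 47.6% were lower after DSF in Huh1 against 20.4% of all probes. In Huh7 28.6% were higher after DSF against 27.4%, near the array-wide share, and 9.52% were lower against 19.4%. After 5-FU 71.4% were lower in Huh1 against 26.0%, and 47.6% in Huh7 against 29.8%. SRSF1, the founding SR protein, lay at -1.43, -1.60 and -1.46 in Huh1 control, at -2.96, -2.50 and -2.54 after 5-FU and at -2.18, -2.12 and -2.22 after DSF. Control, DSF and 5-FU arrays formed 3 separate levels in Huh1. SRSF1 fell by 1.17 after 5-FU (SE 0.10, adjusted p = 5.38e-07) and by 0.67 after DSF (SE 0.10, adjusted p = 7.13e-05) in Huh1. In Huh7 the arrays lay at -0.82, -0.81 and -0.77 in control, at -1.82, -1.69 and -1.73 after 5-FU and at -0.84, -0.93 and -0.95 after DSF. There it fell by 0.94 after 5-FU (SE 0.10, adjusted p = 1.53e-06), and its change of -0.11 after DSF was not called. Scaled on the spike-in probes, its 5-FU changes were -0.34 (adjusted p = 0.0538) in Huh1 and 0.04 in Huh7.

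SRSF7, an SR protein with a zinc knuckle, stood at 4.55, 4.50 and 4.53 in Huh1 control and at 3.45, 3.52 and 3.45 after 5-FU. It fell by 1.05, a 2.07-fold change, in Huh1 (SE 0.07, adjusted p = 8.27e-08), and it fell by 0.54 in Huh7 (adjusted p = 1.37e-05). The difference of the 5-FU effect between the lines was 0.52 (adjusted p = 0.00106). The dimmer SRSF7 probe was not called after 5-FU in either line, at -0.30 and 0.00. Scaled on the spike-in probes, the brighter probe was not called in Huh1 (-0.22, adjusted p = 0.198).

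SRSF5 and SRSF3 fell after 5-FU on every probe in both lines. SRSF5 was at 4.10 on each of the 3 Huh1 control arrays and at 3.51, 3.42 and 3.38 after 5-FU and 3.63, 3.62 and 3.58 after DSF. It fell by 0.66 after 5-FU and fell by 0.49 after DSF (adjusted p = 8.20e-06), and on the other SRSF5 probe it fell by 0.65 and by 0.44. In Huh7 the SRSF5 probes fell by 0.76 and fell by 0.74 after 5-FU, and neither was called after DSF. SRSF2 fell by 0.78 after 5-FU in Huh1 and was not called in Huh7 (0.04), and after DSF it rose by 0.48 in Huh7 and was not called in Huh1 (-0.19). The tests of these differences between the lines gave 0.82 for 5-FU (adjusted p = 0.000152) and 0.67 for DSF (adjusted p = 0.000664).

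SRSF12, a relative of SRSF10 that can repress splicing, was the only SRSF gene that rose after 5-FU on its representative probe in either line, while dimmer probes of SRSF6 and SRSF10 also rose in Huh7. Its levels were -1.99, -2.05 and -2.26 in Huh1 control and -0.98, -0.90 and -0.86 after 5-FU, and in Huh7 -0.83, -0.96 and -0.73 against -0.40, -0.53 and -0.42. It rose by 1.19 in Huh1 (SE 0.08, adjusted p = 1.06e-07) and by 0.39 in Huh7 (SE 0.08, adjusted p = 0.000919), with no overlap. After DSF the Huh7 arrays lay at -1.55, -1.70 and -1.71, all under control, a change of -0.81 (SE 0.08, adjusted p = 2.76e-06). In Huh1 the DSF change was 0.21 (adjusted p = 0.0477), which kept its call in 1 of the 6 fits that left out an array, that without Huh1 control replicate 1. SRSF12 was called lower after DSF than after 5-FU in both lines, by -0.97 in Huh1 and -1.20 in Huh7.

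**Figure D1:**
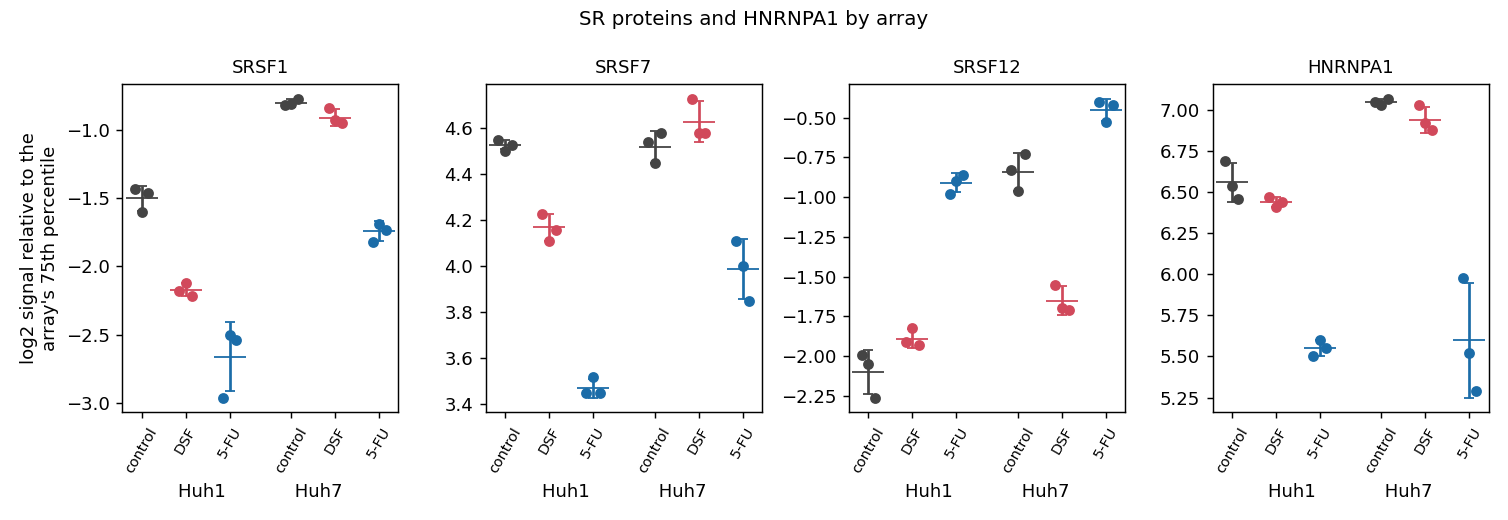
Log2 level of the representative probe of SRSF1, SRSF7, SRSF12 and HNRNPA1 relative to the 75th percentile of each array. Points are the 3 arrays of a group, the long bar is the mean and the whiskers are ±1 SD, and each panel has its own vertical scale. The 5-FU arrays lie under control in both lines for SRSF1, SRSF7 and HNRNPA1 and above control for SRSF12.

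SRSF6 gave opposite readings from its 2 probes. The bright probe stood at 4.46, 4.29 and 4.39 in Huh1 control, 3.98, 4.01 and 3.96 after DSF and 4.10, 4.05 and 4.10 after 5-FU. It fell by 0.40 after DSF (adjusted p = 4.39e-05) and by 0.30 after 5-FU (adjusted p = 0.000471). The dim probe, designed on a RefSeq record without a coding sequence, stood at -1.64, -2.00 and -1.80 in control, -0.99, -1.11 and -0.99 after DSF and -1.36, -1.31 and -1.20 after 5-FU. It rose by 0.78 after DSF (adjusted p = 7.30e-06) and by 0.52 after 5-FU (adjusted p = 0.000233). In Huh7 the bright probe fell by 0.33 after 5-FU and the dim probe rose by 0.32 (adjusted p = 0.00684). After DSF in Huh7 the bright probe rose by 0.47 (adjusted p = 1.06e-05), from 4.04, 4.01 and 4.04 to 4.54, 4.47 and 4.48, and the dim probe was not called (0.08, adjusted p = 0.501). The bright probe was not called after DSF in either line on the spike-in scale (adjusted p = 0.147 and 0.104). The difference between the 2 probes on the same array is untouched by a constant shift of that array, as in median or spike-in scaling, though not by quantile normalization. It moved by 1.18 after DSF and 0.82 after 5-FU in Huh1, and by -0.39 and 0.65 in Huh7, each with an exact permutation p of 0.1, the smallest that 3 arrays against 3 allow. SRSF6, SRSF10 and HNRNPDL were compared in this way because their probes disagreed on these same arrays. TRA2B, compared in the same way below, was chosen after the values were seen. For none of these genes is this p separate support. On the spike-in scale the bright probe was higher after 5-FU, by 0.53 in Huh1 and 0.65 in Huh7.

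SRSF10, a repressor of splicing when dephosphorylated, also had probes called in opposite directions, after DSF in Huh1. Its brightest probe lay at 2.95, 2.94 and 2.96 in control and 2.71, 2.61 and 2.67 after DSF and fell by 0.29 (adjusted p = 0.00246). A probe at 1.93, 1.91 and 1.93 in control and 2.16, 2.14 and 2.09 after DSF rose by 0.21 (adjusted p = 0.0344). The rise lost its call in each of the 6 fits that left out 1 array (adjusted p from 0.0503 to 0.0983) and with the replicate block (adjusted p = 0.0547). The remaining SRSF10 probe was not called (-0.05). Within arrays the 2 called probes drew apart by 0.50 (exact permutation p = 0.1).

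The TRA2 proteins, activators that bind purine-rich enhancers, were not called after DSF in Huh1 on their representative probes. The dimmer TRA2B probe was called higher there, by 0.38, at 2.35, 2.33 and 2.11 after DSF against 2.01, 1.76 and 1.86 in control. That rise was not called with median scaling. TRA2B on its bright probe was at 4.69, 4.60 and 4.62 in Huh1 control and 3.86, 3.99 and 4.03 after 5-FU, and it fell by 0.68 (SE 0.08, adjusted p = 1.40e-05). On its dim probe the Huh1 arrays overlapped, at 2.01, 1.76 and 1.86 in control and 1.96, 2.10 and 2.14 after 5-FU, a change of 0.19 (adjusted p = 0.112). Within arrays the probes drew apart by 0.86 after 5-FU in Huh1, by 0.46 after DSF in Huh1 (exact permutation p = 0.1 for each), and by 0.08 after 5-FU in Huh7 (exact permutation p = 0.3). TRA2A fell by 0.84 after 5-FU in Huh1 and by 0.37 in Huh7.

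Of the 40 HNRNP probes, 30 were called lower and 1 higher after 5-FU in Huh1, and 26 lower and 3 higher in Huh7. Of all probes, 26.0% were lower with 22.3% higher in Huh1, and 29.8% lower with 27.4% higher in Huh7. On the representative probe, 17 of the 22 HNRNP genes fell and 0 rose in Huh1, and 13 fell and 2 rose in Huh7. The 2 that rose were HNRNPA0 and HNRNPUL2, the second at -1.35, -1.29 and -1.41 in control and -0.91, -0.87 and -1.15 after 5-FU, a rise of 0.37 (adjusted p = 0.0328) that lost its call without Huh7 control replicate 1 or 3 or Huh7 5-FU replicate 1 or 2. HNRNPA1, a repressor that binds exonic silencers, fell in both lines. It lay at 6.69, 6.54 and 6.46 in Huh1 control and 5.50, 5.60 and 5.55 after 5-FU, and in Huh7 at 7.05, 7.03 and 7.07 against 5.98, 5.52 and 5.29. The treated arrays were all lower, with an SD of 0.35 in Huh7. It fell by 1.01 in Huh1 (SE 0.13, adjusted p = 1.66e-05) and by 1.45 in Huh7 (SE 0.13, adjusted p = 2.37e-07), a 2.74-fold change. On the other HNRNPA1 probe it fell by 1.15 and by 1.62. All 5 probes listed for HNRNPA1L2, a retrocopy of HNRNPA1, fell as well. Its brightest probe lay at 6.32, 6.09 and 6.08 in Huh1 control and 4.88, 4.92 and 4.92 after 5-FU, and in Huh7 at 6.64 on each control array against 5.21, 4.92 and 4.64. The 5 probes fell with changes from -1.32 to -1.02 in Huh1 and from -1.83 to -1.62 in Huh7. Signal from HNRNPA1 and HNRNPA1L2 cannot be told apart by probes to such similar transcripts. The counts above still hold them as 2 genes, and their 7 probes are all among the lower calls after 5-FU in each line. HNRNPA1 and HNRNPA1L2 were the only members still called lower after 5-FU in Huh7 on the spike-in scale (7 probes), and HNRNPA1L2 the only one in Huh1 (3 probes).

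After DSF neither HNRNPA1 probe was called in either line, with changes from -0.12 to 0.04. DSF against 5-FU gave 0.89 in Huh1 (adjusted p = 4.88e-05) and 1.35 in Huh7 (adjusted p = 5.33e-07) for the bright HNRNPA1 probe. Over the 73 probes, 47 were called higher after DSF than after 5-FU in Huh1 and 7 lower, and in Huh7 48 were called higher and 7 lower. All probes tested gave 28.7% higher with 20.6% lower in Huh1, and 35.6% higher with 25.0% lower in Huh7. The 7 lower calls in Huh7 dropped to 4 without Huh7 5-FU replicate 1 or Huh7 DSF replicate 2 and to 2 without the arrays of slide 3. On the spike-in scale the direction of these counts turned, with 0 probes higher against 41 lower in Huh1 and 4 higher against 59 lower in Huh7, while the median of all probes moved to -0.61 and -1.04. Lower calls made up 56.2% and 80.8% of the members there, against 62.9% and 81.0% of all probes, and higher calls 4.58% and 2.75% of all probes. The median of the 73 probes lay above the array-wide median by 0.22 in Huh1 and 0.32 in Huh7, and with normexp background correction by 0.12 and 0.21. The 2 drugs were given at different doses and share their control arrays within each line.

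HNRNPA2B1, which also takes part in RNA transport, fell in all 4 comparisons on its representative probe, by 0.48 after DSF in Huh1, by 0.15 after DSF in Huh7 (adjusted p = 0.0428), and by 0.80 after 5-FU in each line. The DSF call in Huh7 was lost with median scaling (adjusted p = 0.084), on the spike-in scale (adjusted p = 0.0914), with slide as a block (adjusted p = 0.276) and in 5 of the 6 fits that left out 1 array, all but that without Huh7 DSF replicate 1. HNRNPA3 had 5 probes that spread widely. Its brightest probe lay at 5.78, 5.55 and 5.52 in Huh1 control and 4.96, 4.92 and 5.02 after DSF, and it fell by 0.65 (SE 0.07, adjusted p = 3.68e-06). After 5-FU in Huh7 the 5 HNRNPA3 probes ran from -0.84 to 0.13, the widest range for any gene in that comparison. HNRNPC and HNRNPCL1, whose sequences are too alike for their signals to be told apart, were called on no probe in Huh7 after either drug. In Huh1 a dimmer HNRNPC probe fell by 0.44 after DSF (adjusted p = 0.00587) and by 0.43 after 5-FU (adjusted p = 0.00597), and the other 2 HNRNPC probes and HNRNPCL1 were not called.

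HNRNPDL, a paralog of HNRNPD, had probes called in opposite directions in 2 comparisons. Its bright probe was at 3.08, 3.07 and 3.08 in Huh7 control, 3.64, 3.62 and 3.62 after DSF and 2.49, 2.39 and 2.15 after 5-FU, and it rose by 0.55 after DSF (adjusted p = 3.58e-05) and fell by 0.73 after 5-FU (adjusted p = 9.96e-07). Its dim probe was at 0.74, 0.72 and 0.72 in Huh7 control and 0.53, 0.48 and 0.43 after DSF, and it fell by 0.25 (adjusted p = 0.00836), which was not called with slide as a block (-0.20, adjusted p = 0.162). After 5-FU in Huh1 the bright probe fell by 0.49 (adjusted p = 8.63e-05) and the dim probe rose by 0.45 (adjusted p = 8.54e-05), from 0.27, 0.24 and 0.24 to 0.57, 0.78 and 0.76. The difference between the 2 probes on the same array moved by 0.94 and 0.57 after 5-FU in Huh1 and Huh7 and by -0.36 and -0.80 after DSF, with an exact permutation p of 0.1 for each. On the spike-in scale the bright probe was higher by 0.34 after 5-FU in Huh1.

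Over the 20 genes with several probes, all probes of a gene gave the same call in 9 genes after DSF in each line, in 11 after 5-FU in Huh1 and in 12 after 5-FU in Huh7. Probes were called in opposite directions in 2, 1, 2 and 1 genes in these comparisons, which are SRSF6, SRSF10 and HNRNPDL. The median range between the probes of a gene was 0.20, 0.14, 0.25 and 0.22. In the remaining genes some probes passed the threshold and others did not.

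After DSF 8 of the 22 hnRNP genes fell and 0 rose in Huh1, and 6 rose and 2 fell in Huh7. By probes, 45.0% of the 40 were lower in Huh1 against 20.4% of all probes, and 22.5% were higher in Huh7 against 27.4%, so that the rises in Huh7 were no more frequent than over the array. HNRNPM, which binds enhancer and silencer sequences, was at 3.57, 3.24 and 3.25 in Huh1 control and 2.84, 2.87 and 2.87 after DSF, and in Huh7 at 2.71, 2.75 and 2.70 against 3.13, 3.18 and 3.23. It fell by 0.50 in Huh1 (adjusted p = 0.000386) and rose by 0.46 in Huh7 (adjusted p = 0.000792), with no overlap in either line, and neither change was called on the spike-in scale (adjusted p = 0.0761 and 0.164). HNRNPD, which binds AU-rich elements, lay at 5.31, 5.25 and 5.16 in Huh1 control against 4.84, 4.87 and 4.89 after DSF, and at 5.08, 5.11 and 5.10 in Huh7 control against 5.33, 5.28 and 5.29. It fell by 0.38 in Huh1 (adjusted p = 0.00041) and rose by 0.20 in Huh7 (adjusted p = 0.0244), a call kept in 1 of the 6 fits that left out an array, that without Huh7 DSF replicate 2 (adjusted p from 0.0482 to 0.0664). HNRNPAB rose by 0.70 in Huh7 (SE 0.09, adjusted p = 3.07e-05), from 2.63, 2.59 and 2.59 to 3.26, 3.31 and 3.34, and was not called in Huh1 (-0.12). HNRNPK, which binds C-rich sequences, rose by 0.53 in Huh7 on its bright probe (adjusted p = 4.95e-05), from 3.48, 3.45 and 3.47 to 4.01, 3.97 and 4.0, and was not called on the other (0.05). Scaled on the spike-in probes, the rise was 0.35 and was not called (adjusted p = 0.0952). HNRNPH2, which binds runs of G, fell by 0.37 in Huh1, from 1.72, 1.73 and 1.69 to 1.35, 1.31 and 1.36. It fell by 0.25 in Huh7, from 1.28, 1.30 and 1.34 to 1.17, 0.99 and 1.00, and the Huh7 change was -0.14 with slide as a block (adjusted p = 0.174).

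PTBP1, a repressor that binds pyrimidine tracts, was at 0.14, 0.22 and 0.19 in Huh7 control and 0.63, 0.99 and 0.96 after DSF. All treated arrays were higher, and the rise was 0.68 (SE 0.10, adjusted p = 0.000121). The higher 2 of them are the arrays of slide 3, and with slide as a block the change was 0.44 (adjusted p = 0.0196). In Huh1 the change was 0.12 (adjusted p = 0.399), and the difference between the lines was 0.56 (adjusted p = 0.00786). PTBP2, its paralog best known from neurons, was not called after DSF and fell by 0.49 and by 0.51 after 5-FU in Huh1 and Huh7.

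The difference between the lines was tested directly for each drug. For DSF, taking Huh7 less Huh1, 32 probes were called higher and 10 lower, against 21.2% and 19.3% of all probes. For 5-FU, 19 were called higher and 14 lower, against 18.8% and 17.9%. Of the 44 genes, 8 were called in opposite directions by DSF in the 2 lines with the difference called. By probes, 9.59% were lower in Huh1 and higher in Huh7 against 3.8% of all probes, and 6.85% the other way against 3.21%. HNRNPD, HNRNPM, SRSF6 and SRSF8 were lower in Huh1 and higher in Huh7, and CLK1, CLK2, CLK4 and SRSF12 were higher in Huh1 and lower in Huh7. HNRNPA2B1 and HNRNPH2 were the only genes called lower by DSF in both lines on the representative probe, and neither was with slide as a block, without slide 3 or on the spike-in scale. None was called higher in both, against 9.95% of all probes. On that probe 5-FU called 25 genes lower in both lines, 75.8% of those lower in Huh1 and 100% of those lower in Huh7, and CLK4 and SRSF12 higher in both, 4.55% of the genes against 13.3% of all probes. By probes, 52.1% were lower in both lines after 5-FU against 16% of all probes, and 4.11% after DSF against 7.65% of all probes. HNRNPA0, which also binds AU-rich elements, was the only gene called in opposite directions by 5-FU on that probe. It lay at 0.91, 1.0 and 0.97 in Huh1 control against 0.52, 0.81 and 0.85 after 5-FU, and at 0.55, 0.53 and 0.55 in Huh7 control against 1.07, 1.07 and 0.94. It fell by 0.23 in Huh1 (adjusted p = 0.031), a call lost without Huh1 control replicate 2 or 3 or Huh1 5-FU replicate 1, and rose by 0.48 in Huh7 (adjusted p = 0.000172). SRSF8, close in sequence to SRSF2, lay at -0.05, -0.31 and -0.19 in Huh1 control against -0.65, -0.70 and -0.51 after DSF, and at -0.13, -0.12 and -0.02 in Huh7 control against 0.44, 0.19 and 0.18. It fell by 0.43 in Huh1 (adjusted p = 0.00316) and rose by 0.36 in Huh7 (adjusted p = 0.0107).

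Before treatment the lines differed on most of these probes, as they did over most of the array. Huh7 control was called higher than Huh1 control on 33 probes (45.2%) and lower on 23 (31.5%), against 34.6% and 36.3% of all probes. The median difference was 0.10. CLK2 was higher in Huh7 by 1.72 and HNRNPU, a scaffold protein of nuclear RNA, was lower, with a difference of -1.38. Since nearly all Huh1 arrays lay on slide 1 and the Huh7 control arrays on slide 2, line and slide cannot be told apart here. The spread within groups was small, with a median SD over the 73 probes from 0.027 in Huh7 control to 0.132 in Huh7 5-FU. Over all probes tested it was larger in every group, from 0.068 in Huh7 control to 0.159 in Huh7 5-FU. The shares of members and of all probes therefore compare probes of unlike spread.

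Other genes of RNA splicing were counted from lists. Of 71 probes for 56 genes of the core spliceosome, 14 were higher and 23 lower after DSF in Huh1, 39 higher and 5 lower after DSF in Huh7, 13 higher and 30 lower after 5-FU in Huh1, and 22 higher and 21 lower after 5-FU in Huh7. The spliceosome median after 5-FU was -0.13 in Huh1 and 0.03 in Huh7, against -0.42 and -0.23 for the SR, hnRNP and kinase probes. For 67 probes of 41 other splicing regulators, such as the RBM and CELF proteins, the counts were 15 and 14, 27 and 4, 6 and 33, and 20 and 23 in the same order. The 5-FU medians of these regulators were -0.25 (Huh1) and -0.02 (Huh7). With 5-FU, 49.3% of their Huh1 readings were called lower and 8.96% higher, against 34.3% and 29.9% for Huh7. The excess of lower calls in Huh1 was therefore not limited to the SR, hnRNP and kinase probes. For 26 probes of 16 other kinases, phosphatases and import factors of SR proteins the counts were 13 and 7, 11 and 8, 5 and 9, and 4 and 10. Nonsense-mediated decay removes transcripts with an early stop codon. For 28 probes of 16 of its factors the counts were 19 and 2, 18 and 0, 8 and 4, and 12 and 4. Of the decay probes 67.9% were higher after DSF in Huh1 and 64.3% in Huh7, against 24.0% and 27.4% of all probes. The spliceosome probes were 54.9% higher after DSF in Huh7. After 5-FU in Huh7 31.0% of them were higher and 29.6% lower, near the 27.4% and 29.8% of all probes. The other counts are to be read beside the background shares above, and the lists were not tested against other genes.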

How the data were processed

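The 18 one-color arrays of sorted EpCAM+ cells were grouped by the sample titles. The authors deposited scanner output with an intensity per spot, background-subtracted by Agilent Feature Extraction (version 10.7.1.1 per the labels, another in the methods), and a table that divides each array by its 75th percentile. On each array every value of that table matched the scanner intensity up to a constant factor (tolerance 0.05 in log2), and 0 columns of samples were unused. Doses are those of the labels.

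The log2 intensity was averaged over unflagged spots (316 to 447 flagged and 0 saturated per array), and the array's 75th percentile, 10.098 to 10.839 in log2, was subtracted. Of 42405 probes, 78 lacked an unflagged spot on some array, and 29760 were tested because some group had all of its arrays well above background. Arrays within a group correlated at 0.9887 or more. Gene symbols came from a RefSeq table of GRCh38.p14 by accession (25732 of 27099 accessions named), not the array's build, so it gave names and the printed promoters only. A single limma fit held 6 groups, with 12 residual degrees of freedom. The code was tested on simulated data. Tools were R 4.3.3, limma 3.58.1, Python 3.11.15, pandas 2.3.3, numpy 2.4.6 and matplotlib 3.10.9.

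Members, lists and tests were chosen with earlier results of these data known. Full values are given for the 4 widest rises and falls per drug and line with no overlap of arrays, for genes with probes called in opposite directions, and for genes called in opposite directions in the 2 lines. Other genes and the promoter motifs were chosen after the values were seen. Alternatives were normexp background correction (offset 50, on median signals, since the files hold no mean signal), quantile, median and spike-in scaling, the deposited table, filters on dim probes, slide, the replicate block, each line alone, and leaving out each array. The number of arrays limits the precision. The list of markers of other cell types is given in part, and the rest of it is not reported here.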

Additional observations from a re-analysis of the deposited data

Results flagged for a closer look

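The drug effect differed between Huh7 and Huh1, by the limma test of the difference itself, for 9 genes called in opposite directions in the lines. For DSF the Huh7 change less the Huh1 change was -2.15 for CLK1 (SE 0.19, adjusted p = 1.71e-06), -0.76 for CLK2 (SE 0.11, adjusted p = 0.000127), -0.48 for CLK4 (SE 0.13, adjusted p = 0.00755) and -1.03 for SRSF12 (SE 0.12, adjusted p = 1.30e-05). It was 0.58 for HNRNPD (SE 0.10, adjusted p = 0.000307), 0.96 for HNRNPM (SE 0.13, adjusted p = 4.72e-05), 0.87 for SRSF6 (SE 0.08, adjusted p = 1.76e-06) and 0.79 for SRSF8 (SE 0.15, adjusted p = 0.000664). For 5-FU it was 0.71 for HNRNPA0 (SE 0.12, adjusted p = 0.000297). The difference for CLK4 was not called with slide as a block (-0.29, adjusted p = 0.0874), without slide 3 (-0.26, adjusted p = 0.132) or with median scaling (-0.33, adjusted p = 0.105). Those for HNRNPD and SRSF8 were not called on the spike-in scale (0.27, adjusted p = 0.359, and 0.48, adjusted p = 0.188). The other 6 were called under each of these settings. The slide does not separate these effects fully, because all Huh7 control arrays lay on slide 2 and most Huh1 arrays on slide 1.

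Of the 2 calls behind each difference, those of CLK1 and CLK4 in Huh7, and of HNRNPD in Huh7, were lost with slide as a block, at -0.29, -0.03 and 0.23, as was that of SRSF12 in Huh1, at 0.24. The HNRNPD call in Huh7 (0.20) was also lost in 5 of the 6 fits that left out 1 array, all but that without Huh7 DSF replicate 2. The HNRNPA0 call in Huh1 (-0.23) was lost without Huh1 control replicate 2, Huh1 control replicate 3 or Huh1 5-FU replicate 1, and on the spike-in scale its change there was 0.60.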

How the results depend on the processing

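Scaling on the spike-in probes moved most counts. After 5-FU 42 probes were higher with 3 lower in Huh1, while 52 were higher with 7 lower in Huh7. After DSF 3 were lower in Huh1 and 2 higher in Huh7. For DSF against 5-FU 0 were higher with 41 lower in Huh1, while 4 were higher with 59 lower in Huh7, and 14 and 12 differences between lines were called for DSF and 5-FU. Of 53 changes of named genes 19 lost their call there and 6 reversed, with none reversed elsewhere. The 6 were all after 5-FU: CLK2 in Huh7 (0.04), SRSF1 in Huh7 (0.04), HNRNPA0 in Huh1 (0.60), HNRNPDL in Huh1 (0.34) and SRSF6 in Huh1 and Huh7 (0.53 and 0.65). Falls after 5-FU outside the 53 changes turned there as well. Among them, SRPK1 was called higher in both lines, and PTBP2 and TRA2A were called higher in Huh7. Median scaling gave 5 higher after DSF in Huh1, 5 lower after DSF in Huh7, and 31 higher and 11 lower for DSF against 5-FU in Huh1. Lower calls after DSF in Huh7 numbered 15 with quantile normalization and 2 with slide as a block or without slide 3, which also left 2 lower for DSF against 5-FU in Huh7. Leaving out 1 array gave 7 to 13 higher after DSF in Huh1, 5 to 11 lower after DSF in Huh7, 5 to 10 higher after 5-FU in Huh7, and 4 to 8 lower for DSF against 5-FU in Huh7. Other counts stayed within 1.5 times under the settings run. Outside spike-in scaling 12 of the 53 changes lost their call under some setting; the cause was not tested.

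With the replicate block 2 of the 53 changes lost their call, SRSF10 (0.21, adjusted p = 0.0547) and SRSF12 (0.21, adjusted p = 0.0658), both after DSF in Huh1. Samples with the same number did not deviate together (correlation -0.093 to 0.104 over 45 pairs), so the numbers were not used as a pairing.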
